A study of Homo sapiens with 6 samples.

Results

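The genes described here are the 35 listed enzymes of purine, pyrimidine and deoxynucleotide synthesis, found by gene name in the deposited count and FPKM tables, which hold 58735 genes. Each name matched 1 row of the tables. Of the 35, 34 had enough counts to be tested, and CTPS2 had 0 counts in all 6 libraries. RNA was sequenced from MOLT-3, a human T-cell acute lymphoblastic leukaemia line kept in culture, after treatment with compound E (3 libraries) or with DMSO as the control (3 libraries). Compound E inhibits gamma-secretase, the protease that frees the active part of NOTCH receptors. The study compared these groups to look for genes regulated by NOTCH1 that may bear on chemosensitivity. All values come from 1 cell line, the sources used here give neither dose nor time of treatment, and the labels do not say that replicates were separate cultures. The p-values therefore measure the spread between these libraries, which may be technical.

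Cells build purines stepwise on ribose phosphate up to inosine monophosphate (IMP), the branch point to adenine and guanine nucleotides, and build the pyrimidine ring first and attach the sugar afterwards. Ribonucleotide reductase turns the ribonucleotides into deoxynucleotides for DNA, and salvage enzymes recover bases and nucleosides. Dividing lymphoblasts depend strongly on these pathways, and several of the enzymes are drug targets in leukaemia or cause immune deficiency in people when lost.

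The libraries held 18154037 to 18973990 counts with compound E and 17316138 to 19845114 with DMSO, of which the 35 genes took 0.431% to 0.437% with compound E and 0.455% to 0.456% with DMSO. The treatment check gave lower NOTCH3 (log2 fold change -3.03), HES1 (-2.16) and MYC (-0.84) with compound E, and of the other NOTCH-related genes checked HES4 and DTX1 were also called lower and PREX2 and NOTCH1 higher. The T-lineage label was met by the 8 markers checked, all of which were detected, with a summed level of 4774 to 4989 CPM with compound E and 4931 to 4978 CPM with DMSO; 7 of them were called, CD2 (0.94) and TRBC2 (0.07) higher and CD7 (-0.73), CD3D (-0.35), CD3E, CD5 and LCK lower. Of the other lineages, 5 B-lineage markers summed to 13.6 to 15.0 CPM with compound E and 14.2 to 15.4 CPM with DMSO, nearly all of it CD79A, while PAX5 and MS4A1 had 0 counts. The 5 myeloid markers summed to 2.32 to 2.74 CPM with compound E and 2.80 to 2.98 CPM with DMSO, with MPO at 0, and the 5 erythroid and epithelial markers stayed under 1 CPM in sum with HBB at 0.

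With compound E, 8 of the 12 genes of purine synthesis fell and 0 rose, while 4 of 9 genes of deoxynucleotide supply rose and 3 fell, and 2 of 4 nucleotide kinases rose and 0 fell. Over the whole list of 34 tested genes 14 fell and 8 rose, where a gene is called when the quasi-likelihood test of edgeR, adjusted by the Benjamini-Hochberg method over all 16926 tested genes, gives p under 0.05. The called share of 64.7% stood beside 38.3% of all tested genes (19.4% lower and 18.9% higher). Among tested protein-coding genes with at least 5 CPM in 3 libraries, 49.8% were called, 23.2% lower and 26.7% higher. Neither of these sets was matched to the list for expression level. The changes were small: 4 of the 22 called genes (IMPDH2, RRM2, TK2 and DTYMK) reached 1.2-fold and 0 reached 1.5-fold, where 8.68% of all tested genes were called at 1.5-fold or more. The median log2 fold change was -0.05, against -0.0034 over all tested genes, and its median size was 0.18, against 0.17. Libraries of the groups did not overlap for 23 of the 34 genes (67.6%), against 46.8% of all tested genes and 57% of those protein-coding genes. Summed over the 35 genes, expression was 4350 ± 49.9 CPM with compound E and 4562 ± 7.32 CPM with DMSO (SD, n = 3 each). In bulk RNA, fewer cells of a kind and less RNA per cell cannot be told apart. CPM here are counts scaled to library depth with TMM factors, and every fold change has compound E on top.

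**Figure D1:**
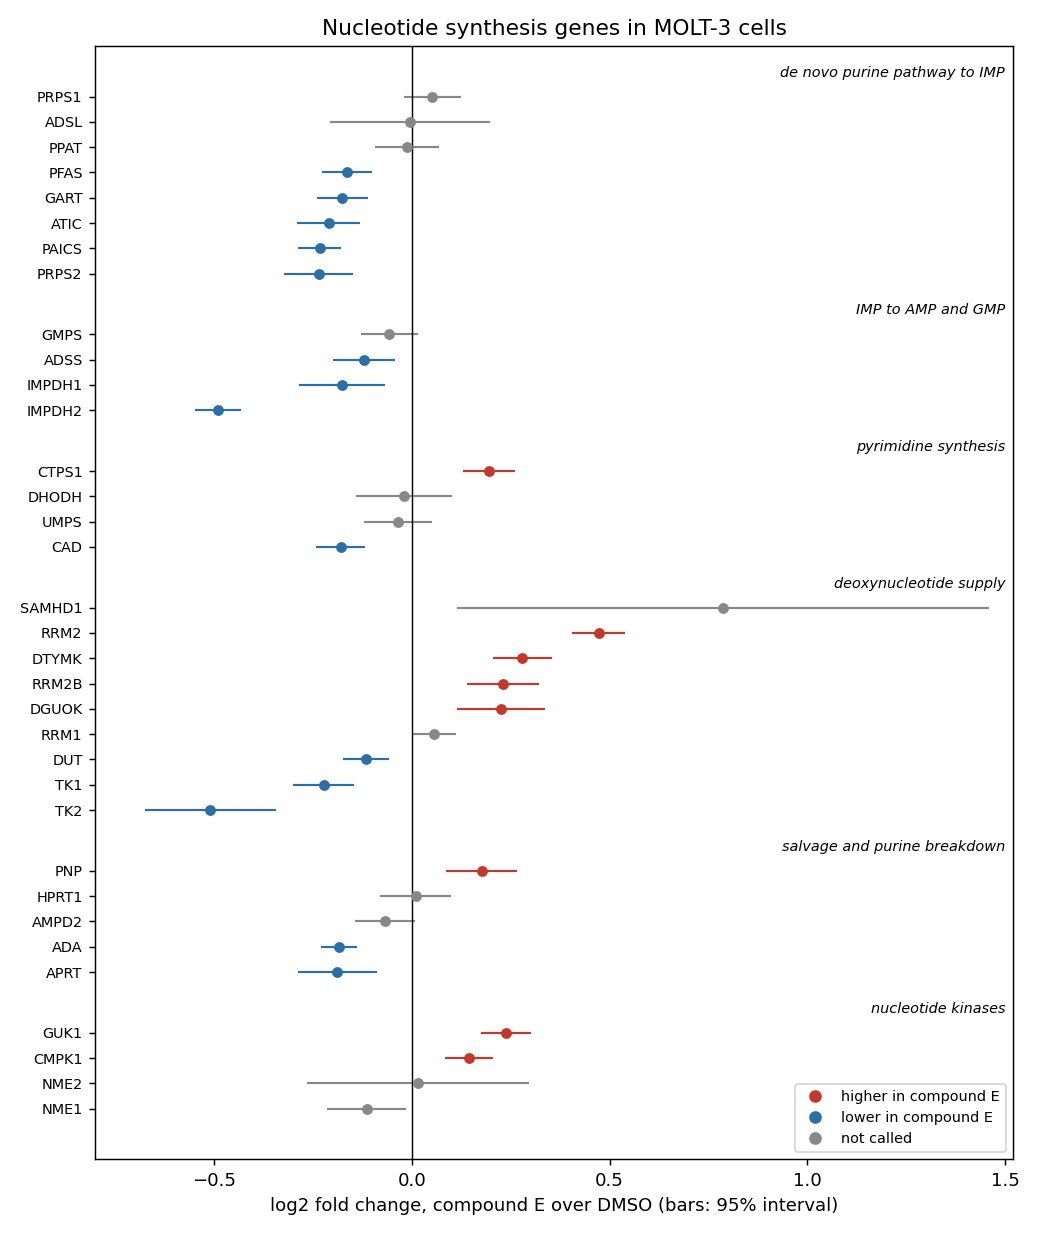
Log2 fold change (compound E over DMSO) of the 34 tested genes, grouped by role, with bars for the 95% interval; red and blue points passed the test upwards and downwards and grey ones did not. Called genes of the purine pathway to IMP lie left of 0 and 4 of the called genes of deoxynucleotide supply lie right of it.

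Some of the genes overlap others. In GENCODE release 29, whose gene positions and names match all 58735 rows, 6 of the 35 genes share over 25% of their coding bases with exons of another gene: NME2 (100%), RRM2 (78.5%), NME1 (75.6%), ADSL (68.8%), TK2 (40.4%) and DUT (32.6%). The sources used here do not say how reads in shared bases were counted, and levels of these genes are uncertain. Without these 6, 12 genes fell and 7 rose among 28 tested, a share of 67.9%.

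Genes of the purine pathway to IMP that changed were all lower. Of 8 genes of the pathway to IMP 5 fell and 0 rose. Of tested protein-coding genes with at least 5 CPM in 3 libraries 23.2% fell and 26.7% rose. The summed expression of the 8 genes was 919 ± 26.6 CPM with compound E and 1028 ± 6.82 CPM with DMSO (SD, n = 3 each). PRPS2, an isoform of the synthase that makes the ribose donor PRPP, had 62.4, 62.4 and 67.9 CPM with compound E, against 78.5, 76.6 and 71.5 CPM with DMSO. All compound E libraries lay below all DMSO libraries, and PRPS2 fell 1.18-fold (log2 fold change -0.24 ± 0.0443 SE, edgeR adjusted p = 3.72e-05). Its isoform PRPS1 had 105, 116 and 108 CPM with compound E and 106, 106 and 106 CPM with DMSO, and was not called (adjusted p = 0.294). The 95% interval of its log2 fold change, from its standard error, was -0.02 to 0.12.

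PAICS, which carries out the carboxylation and the next ligation of the purine ring, had 293, 311 and 298 CPM with compound E, against 354, 352 and 353 CPM with DMSO. It was the most abundant gene of the pathway by CPM, and its fall of 1.18-fold (log2 -0.23 ± 0.0277 SE, edgeR adjusted p = 5.92e-09) had the smallest p among the 8. ATIC, the bifunctional enzyme of the last steps to IMP, had 90.0, 104 and 96.3 CPM with compound E, against 111, 114 and 111 CPM with DMSO. The groups did not overlap, and ATIC fell by 0.21 ± 0.0402 (SE) on the log2 scale (edgeR adjusted p = 4.61e-05). Its call was lost with limma on unfiltered FPKM (adjusted p = 0.0741).

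GART, a trifunctional enzyme of the same pathway, had 119.6, 122 and 121 CPM with compound E, against 137, 135 and 137 CPM with DMSO. The libraries within a group differed by less than the groups did, and GART fell 1.13-fold (log2 -0.18 ± 0.0327 SE, edgeR adjusted p = 3.04e-05). PFAS, which works between GART's steps, fell to 147 ± 4.53 CPM with compound E, against 165 ± 2.57 CPM with DMSO (SD, n = 3 each; log2 -0.16). The committed enzyme of the pathway, PPAT, was not called, with 69.1, 72.5 and 68.2 CPM with compound E, against 69.0, 72.6 and 69.9 CPM with DMSO. The interval of its log2 fold change was -0.09 to 0.07. ADSL, adenylosuccinate lyase, had a log2 fold change of -0.0045 (adjusted p = 0.980), on 158 to 189 counts per library with compound E and 159 to 198 with DMSO. Its level was low, at 1.34 ± 0.128 FPKM with compound E and 1.34 ± 0.0558 FPKM with DMSO (SD, n = 3 each). ADSL shares 68.8% of its coding bases with the overlapping gene AL022238.4, which had 3 to 6 counts with compound E and 1 to 6 with DMSO. At most these few reads can have been counted for both genes. Whether other reads in the shared bases were left out was not tested.

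PPAT and PAICS lie head to head on chromosome 4, PPAT on the minus and PAICS on the plus strand, with 125 bases between their starts. The same stretch of DNA stands upstream of PAICS, which fell, and of PPAT, which was not called. The ratio of PAICS to PPAT by FPKM was 3.06, 3.10 and 3.16 with compound E, against 3.71, 3.51 and 3.65 with DMSO, and did not overlap between the groups (exact two-sided permutation p = 0.1, the smallest that 3 against 3 allows). This pair was chosen after its values were seen. The stretch between the starts (GRCh38 chr4:56435616-56435740, printed on the minus strand, the sense of PPAT) holds neither of the motifs CACGTG and CCAAT. The E-box CACGTG, a site of MYC and its partner MAX, was found 182 bases before the RefSeq start of PPAT. This E-box lies inside PAICS, past the listed start of that gene at 56435741, and PAICS had no matched promoter window. The surroundings of the E-box (chr4:56435780-56435809, minus strand) are shown with the motif in capitals beside the promoter of ATIC (chr2:215311809-215312058, plus strand). ATIC fell and holds the motif 46 bases before its start and again after the start, outside the printed stretch.
PPAT to PAICS: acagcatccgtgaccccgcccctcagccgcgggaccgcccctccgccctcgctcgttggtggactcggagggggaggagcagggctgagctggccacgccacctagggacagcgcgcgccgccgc
PPAT E-box window: aacggagatttcCACGTGcagcaaatacag
ATIC: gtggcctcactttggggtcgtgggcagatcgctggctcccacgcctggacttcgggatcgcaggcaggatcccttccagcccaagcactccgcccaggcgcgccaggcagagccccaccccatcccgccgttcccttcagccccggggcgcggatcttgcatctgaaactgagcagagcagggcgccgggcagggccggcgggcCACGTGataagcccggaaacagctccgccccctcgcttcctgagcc

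RefSeq promoter windows (GRCh38.p14), from 250 bases before to 50 after the start, were matched for 21 of the 35 genes. CACGTG, read on both strands as it is its own complement, was in 4 of the 21 (19.0%), ATIC, PPAT, DHODH and NME1, and in 7.26% of 35116 windows of all genes. It was in 1 of the 8 matched genes that fell (ATIC), in 0 of the 4 that rose and in 3 of the 9 that were not called. PAICS, which fell and holds the E-box of the PPAT window past its own start, was not among the 21. Both strands were also searched for 2 further motifs. CGTGGGAA, a form of the site of the NOTCH partner RBPJ, was in 1 window of the 21, that of HPRT1, and in 0.826% of all, and TTTNNCGC, part of an E2F site, was in that of PRPS2 and in 6.89% of all.

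At the branch from IMP, the guanine arm held the largest fall of purine synthesis. IMPDH2, the main isoform of the enzyme that commits IMP to guanine nucleotides and the target of mycophenolic acid, had 169, 173 and 179 CPM with compound E, against 247, 240.5 and 245 CPM with DMSO. The highest compound E library lay well below the lowest DMSO library, and IMPDH2 fell 1.40-fold (log2 -0.49 ± 0.0300 SE, edgeR adjusted p = 8.26e-17). Its smaller partner IMPDH1 had 30.4, 31.5 and 31.2 CPM with compound E, against 35.4, 35.8 and 33.9 CPM with DMSO, and fell 1.13-fold (log2 -0.18 ± 0.0553 SE, edgeR adjusted p = 0.0101). DESeq2 did not call IMPDH1 (adjusted p = 0.0548), nor did edgeR when DMSO replicate 2 was left out (0.0519).

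On the adenine arm, ADSS, adenylosuccinate synthase, had 77.4, 82.8 and 75.2 CPM with compound E, against 83.7, 85.5 and 86.8 CPM with DMSO. It fell 1.09-fold (log2 -0.12 ± 0.0404 SE, edgeR adjusted p = 0.0157), with a gap between the groups smaller than the spread inside the compound E group. DESeq2 (adjusted p = 0.0597) and limma on FPKM (0.0631 to 0.144) did not call ADSS. It was also not called by edgeR when compound E replicate 1 (0.0658), compound E replicate 3 (0.0891) or DMSO replicate 3 (0.0688) was left out. GMPS, which makes GMP after IMPDH, had 105 to 109.5 CPM with compound E and 106 to 115 CPM with DMSO and was not called (adjusted p = 0.240). In all, 3 of the 4 genes of the branch fell and 0 rose, beside 23.2% and 26.7% of the protein-coding genes with at least 5 CPM. The summed expression of the 4 genes was 390.4 ± 6.72 CPM with compound E and 476 ± 7.39 CPM with DMSO (SD, n = 3 each).

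**Figure D2:**
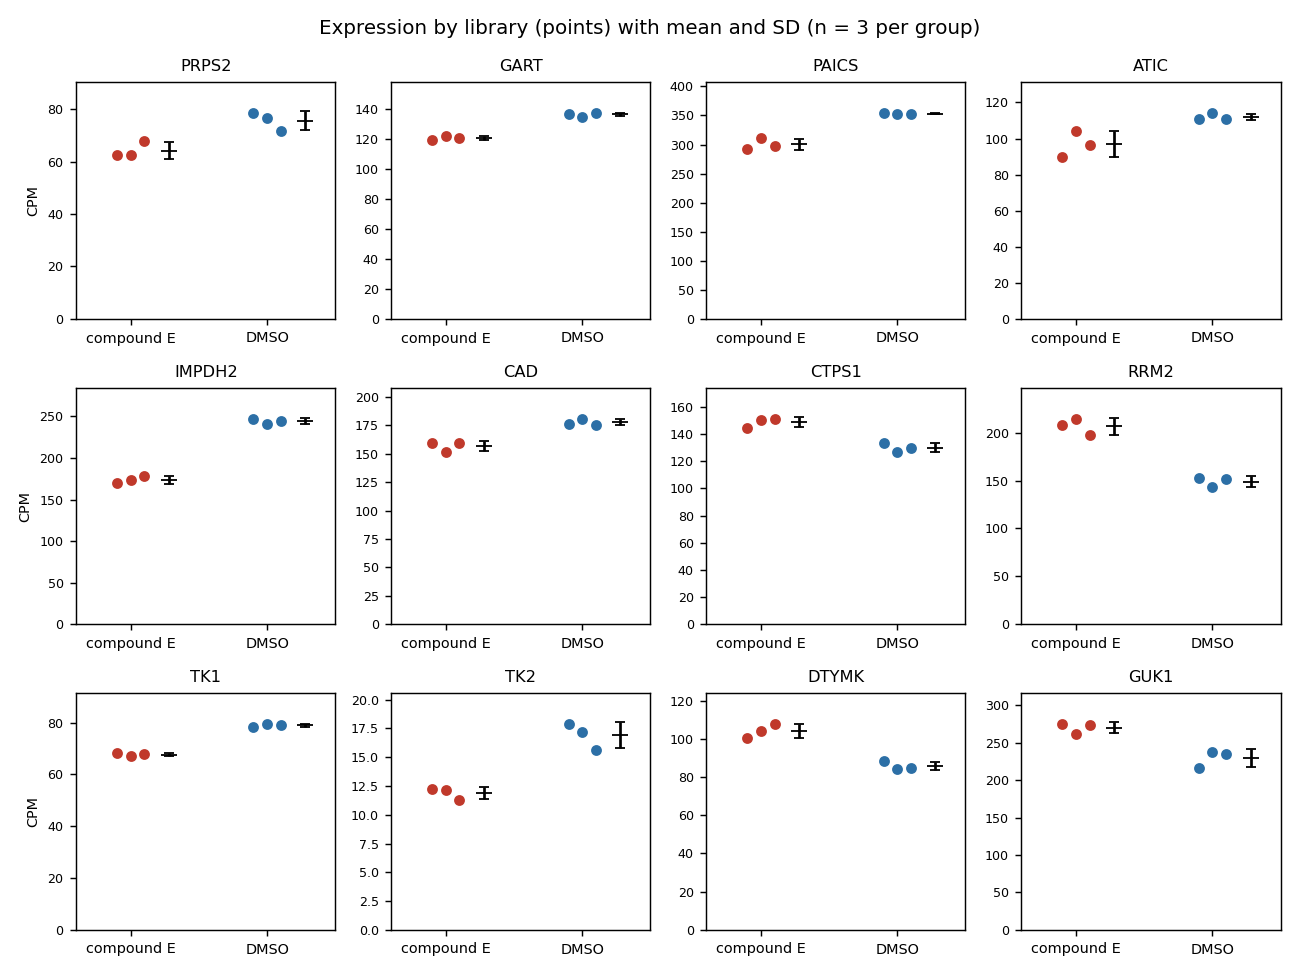
Expression in CPM (linear axes from 0) of 12 genes in each library, compound E in red and DMSO in blue, with the mean and SD of each group in black. All 12 are called genes whose groups did not overlap, and APRT, which was called with overlapping groups, is not shown. In every panel the compound E points therefore lie wholly above or wholly below the DMSO points, as in IMPDH2, at 169 to 179 CPM with compound E and 240.5 to 247 CPM with DMSO.

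Of 4 tested pyrimidine synthesis genes 1 fell and 1 rose, beside 23.2% and 26.7% of protein-coding genes with at least 5 CPM. CAD, the large protein that holds the first 3 enzyme activities of the pathway, had 159, 152 and 159.8 CPM with compound E, against 177, 181 and 176 CPM with DMSO. The groups did not overlap, and CAD fell 1.13-fold (log2 -0.18 ± 0.0316 SE, edgeR adjusted p = 1.32e-05). DHODH, the mitochondrial dehydrogenase of the pathway, and UMPS, which closes it at UMP, were not called, with log2 fold changes of -0.02 (interval -0.14 to 0.10) and -0.03 (interval -0.12 to 0.05). At the far end CTPS1, the CTP synthase that activated lymphocytes need to divide, had 144, 151 and 151 CPM with compound E, against 134, 127 and 129.6 CPM with DMSO. CTPS1 rose 1.14-fold (log2 0.20 ± 0.0332 SE, edgeR adjusted p = 7.49e-06), and all compound E libraries were above all DMSO libraries. Summed over the 5 genes the level was 391 ± 5.59 CPM with compound E and 395 ± 2.42 CPM with DMSO (SD, n = 3 each).

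The other CTP synthase gene, CTPS2, shared no exon base with another gene and was listed at 0 in every library. A count of 0 allows up to 3 counts, or 0.0288 to 0.0300 FPKM with compound E and 0.0272 to 0.0312 FPKM with DMSO. CTPS1 stood at 12.5 to 13.1 FPKM with compound E and 10.9 to 11.5 FPKM with DMSO, at least 421-fold, 434-fold and 454-fold above that limit in the compound E libraries and at least 411-fold, 401-fold and 358-fold above it in the DMSO libraries. These limits cover counting error only.

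Deoxynucleotide supply held both rises and falls. Of 9 genes 4 rose and 3 fell, and the groups did not overlap for any of the 9. The 9 include RRM1 and SAMHD1, which were not called. SAMHD1 lay under 5 CPM, at 1.01 CPM in its lowest compound E library and 0.932 CPM in its highest DMSO library. Among all tested genes 38.3% were called and 46.8% did not overlap. Among tested protein-coding genes with at least 5 CPM in 3 libraries these shares were 49.8% and 57%. RRM2, the small subunit of ribonucleotide reductase that is made in S phase, had 208, 215 and 197 CPM with compound E, against 153, 143 and 152 CPM with DMSO. The lowest compound E library was well above the highest DMSO library, and RRM2 rose 1.39-fold (log2 0.47 ± 0.0337 SE, edgeR adjusted p = 8.30e-15), the largest rise among the called genes of the list. The gene AC007240.1, whose exons cover 78.5% of the coding bases of RRM2, had 223, 189 and 210 counts with compound E and 294, 263 and 205 with DMSO and was called lower (log2 -0.26, edgeR adjusted p = 0.0314). Its part in the RRM2 result was not tested.

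RRM1, the large subunit, had 237, 236 and 231 CPM with compound E, against 226, 226 and 224 CPM with DMSO. The groups did not overlap, yet its log2 fold change of 0.06 ± 0.0284 SE was not called (edgeR adjusted p = 0.113; called with limma on log2(FPKM + 1), 0.0437). RRM2B, the small subunit induced by p53, had 66.2, 66.8 and 61.5 CPM with compound E, against 58.3, 54.0 and 53.3 CPM with DMSO. It rose 1.17-fold (log2 0.23 ± 0.0464 SE, edgeR adjusted p = 0.000101).

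The thymidine branch went both ways. DTYMK, thymidylate kinase, which makes the diphosphate on the way to dTTP, had 101, 104 and 108 CPM with compound E, against 88.5, 84.5 and 84.5 CPM with DMSO, and rose 1.21-fold (log2 0.28 ± 0.0378 SE, edgeR adjusted p = 9.98e-08). TK1, the cytosolic thymidine kinase of S phase, had 68.3, 67.0 and 67.7 CPM with compound E, against 78.4, 79.4 and 79.2 CPM with DMSO. Its libraries were tight within each group, and TK1 fell 1.17-fold (log2 -0.22 ± 0.0396 SE, edgeR adjusted p = 1.51e-05). TK2, the mitochondrial thymidine kinase, had 12.2, 12.2 and 11.3 CPM with compound E, against 17.9, 17.2 and 15.7 CPM with DMSO, and fell 1.42-fold, the largest fall of the list (log2 -0.51 ± 0.0840 SE, edgeR adjusted p = 4.44e-06). The genes that share coding bases with TK2 had 0 to 4 counts with compound E and 0 to 5 with DMSO. At most these few reads can have been counted for TK2 as well. Whether other reads in the shared bases were left out was not tested.

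DGUOK, the mitochondrial kinase of purine deoxynucleosides, had 36.2, 37.5 and 39.1 CPM with compound E, against 29.9, 33.8 and 32.7 CPM with DMSO, and rose 1.17-fold (log2 0.23 ± 0.0569 SE, edgeR adjusted p = 0.00141). The mitochondrial kinases TK2 and DGUOK thus went in opposite directions. DUT, which removes dUTP so that uracil stays out of DNA, had 180.4, 183 and 186 CPM with compound E, against 198, 199.7 and 198 CPM with DMSO, and fell 1.08-fold (log2 -0.12 ± 0.0297 SE, edgeR adjusted p = 0.00175). Its antisense neighbour AC023355.1, which overlaps 32.6% of the coding bases of DUT, was also called lower (log2 -0.40), at 6.76 ± 1.02 CPM with compound E and 8.90 ± 0.558 CPM with DMSO (SD, n = 3 each). SAMHD1, which breaks deoxynucleotides down, was near the detection limit, with 22, 20 and 19 counts with compound E, against 18, 7 and 11 with DMSO. It was not called (log2 0.79 ± 0.343 SE, adjusted p = 0.0681), and was called when DMSO replicate 1 was left out (log2 1.18, adjusted p = 0.0239 in edgeR) and with limma-voom (adjusted p = 0.0459).

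The promoter of DTYMK is shown because DTYMK was the called gene with the largest rise among the 4 that rose and had a matched window. It holds 2 copies of CCAAT, the box bound by NF-Y, 92 and 24 bases before the RefSeq start (GRCh38.p14 chr2:241686816-241687065, minus strand, motif in capitals on either strand). CCAAT, searched on both strands, was in 9 of the 21 matched windows (42.9%) and in 34.6% of all windows, and in 3 of the 4 matched genes that rose, DTYMK, DGUOK and PNP, in 1 of the 8 that fell and in 5 of the 9 that were not called.
DTYMK: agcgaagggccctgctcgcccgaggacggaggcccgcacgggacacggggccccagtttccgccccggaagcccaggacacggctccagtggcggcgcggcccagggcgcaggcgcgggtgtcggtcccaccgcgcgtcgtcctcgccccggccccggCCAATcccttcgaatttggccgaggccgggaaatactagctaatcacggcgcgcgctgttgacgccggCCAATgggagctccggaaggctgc

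Of 5 genes of salvage and purine breakdown, 2 fell and 1 rose, beside 23.2% and 26.7% of the protein-coding genes with at least 5 CPM. ADA, adenosine deaminase, whose loss causes severe combined immune deficiency, was the most abundant gene of the list by FPKM, above 99.6% of the tested protein-coding genes. It had 947, 969 and 984 CPM with compound E, against 1095, 1097 and 1104 CPM with DMSO, and fell 1.14-fold (log2 -0.18 ± 0.0234 SE, edgeR adjusted p = 2.47e-08). ADA alone made up most of the summed 1240 ± 17.2 CPM with compound E and 1377 ± 8.17 CPM with DMSO of the 5 genes (SD, n = 3 each). PNP, purine nucleoside phosphorylase, the next enzyme after ADA, moved the other way, with 60.8, 61.5 and 57.0 CPM with compound E, against 51.3, 52.8 and 54.4 CPM with DMSO. It rose 1.13-fold (log2 0.18 ± 0.0460 SE, edgeR adjusted p = 0.00203), without overlap between the groups.

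Of the phosphoribosyltransferases that recover bases, APRT, for adenine, had 56.6, 54.7 and 62.8 CPM with compound E, against 67.4, 70.0 and 60.7 CPM with DMSO. The groups overlapped, since compound E replicate 3 was above DMSO replicate 3. APRT fell 1.14-fold (log2 -0.19 ± 0.0505 SE, edgeR adjusted p = 0.00273), and lost its call with limma on FPKM (adjusted p = 0.0836 to 0.217). HPRT1, for hypoxanthine and guanine and the activator of mercaptopurine, was not called at 64.1 ± 3.32 CPM with compound E and 63.7 ± 2.70 CPM with DMSO (SD, n = 3 each), with an interval of the log2 fold change of -0.08 to 0.10. AMPD2, which turns AMP back into IMP, was not called either (log2 -0.07, adjusted p = 0.171).

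Of the 4 kinases that charge nucleotides, 2 rose and 0 fell, beside 26.7% and 23.2% of the protein-coding genes with at least 5 CPM. GUK1, guanylate kinase, had 275, 262 and 274 CPM with compound E, against 216, 238 and 235 CPM with DMSO, and rose 1.18-fold (log2 0.24 ± 0.0320 SE, edgeR adjusted p = 9.61e-08). CMPK1, the kinase of CMP and UMP, had 175, 180.0 and 178 CPM with compound E, against 159, 161 and 163 CPM with DMSO, and rose 1.11-fold (log2 0.14 ± 0.0306 SE, edgeR adjusted p = 0.000184). The groups did not overlap for either gene, and the sum over the 4 kinases was 499 ± 3.81 CPM with compound E and 444 ± 15.0 CPM with DMSO (SD, n = 3 each).

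NME1 and NME2, nucleoside diphosphate kinases, were not called (adjusted p = 0.0766 and 0.948 in edgeR). NME1 had 46.0, 47.3 and 41.8 CPM with compound E, against 47.3, 50.01 and 48.7 CPM with DMSO, and it was called lower with upper quartile scaling (adjusted p = 0.0447), with the filter of 5 CPM (0.0385) and without compound E replicate 2 (0.0323). NME2 had 4.92, 5.09 and 6.75 CPM with compound E, against 5.54, 6.16 and 4.85 CPM with DMSO. The read-through gene NME1-NME2, whose exons cover all coding bases of NME2, had 1 to 5 counts with compound E and 3 to 4 with DMSO, and the levels of both genes are uncertain.

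**Figure D3:**
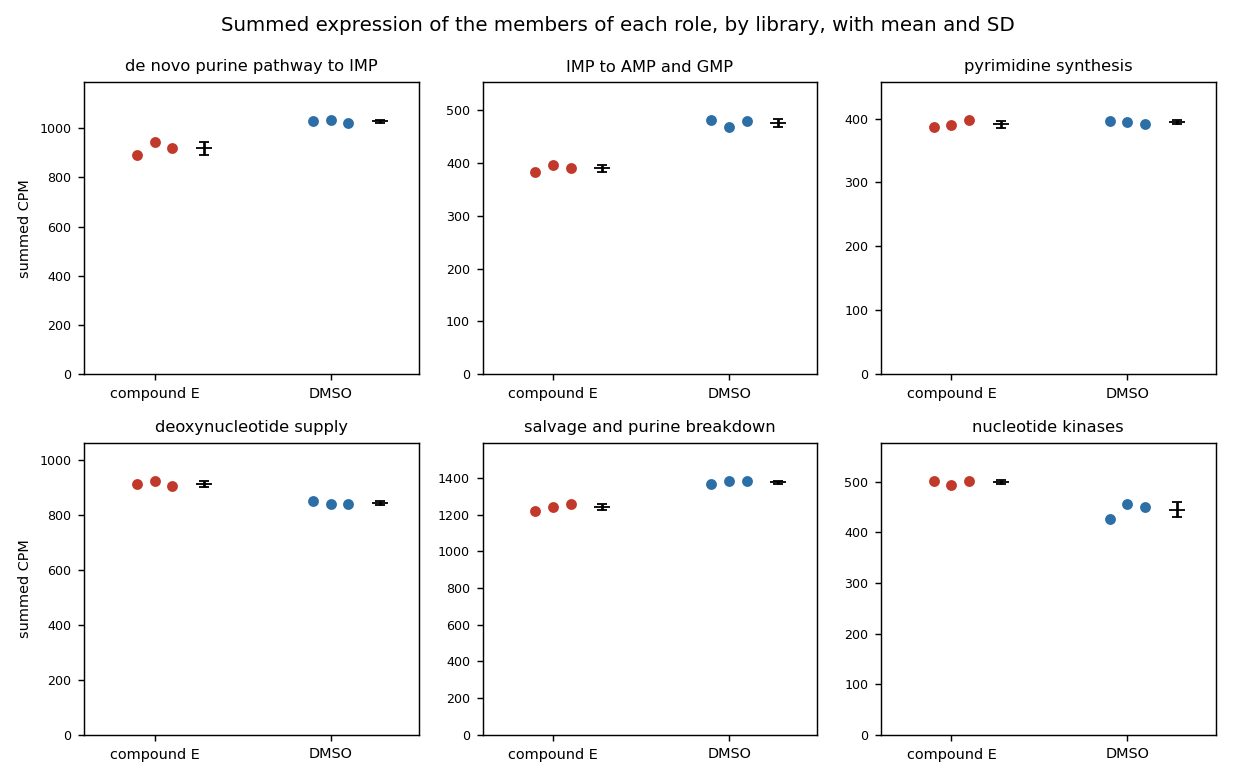
Summed CPM (linear axes from 0) of the members of each of the 6 roles in each library, compound E in red and DMSO in blue, with mean and SD (n = 3 each). The purine pathway, its branch and salvage were lower with compound E, deoxynucleotide supply (RRM2 alone at 207 CPM with compound E and 149 CPM with DMSO) and the kinases were higher, and pyrimidine synthesis overlapped, at 386 to 397 CPM with compound E and 392.1 to 397 CPM with DMSO.

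Genes paired by like function were set against each other by ratios within a library. Ratios of FPKM, which are per length, were compared within each library for the 5 of 6 pairs in which both genes had counts. PRPS1 over PRPS2 was 1.77, 1.95 and 1.68 with compound E, against 1.41, 1.45 and 1.56 with DMSO. IMPDH1 over IMPDH2 was 0.136, 0.138 and 0.132 with compound E, against 0.108, 0.113 and 0.105 with DMSO, so that IMPDH2 was the more abundant isoform in every library. In each of these 2 pairs the ratios of the groups did not overlap, and all were higher with compound E.

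RRM2 over RRM2B was 3.28, 3.35 and 3.34 with compound E, against 2.73, 2.76 and 2.96 with DMSO. TK1 over TK2 was 21.6, 21.2 and 23.0 with compound E, against 16.9, 17.8 and 19.5 with DMSO. NME1 over NME2 was 7.15, 7.12 and 4.74 with compound E, against 6.53, 6.22 and 7.68 with DMSO, and overlapped between the groups. RRM2, TK2, NME1 and NME2 share coding bases with other genes, and the ratios that use them are as uncertain as their levels. For the 4 pairs without overlap the exact two-sided permutation test gave p = 0.1, the smallest that 3 against 3 allows, and 0.125 adjusted over the 5 pairs; for NME1 over NME2 it gave p = 0.8.

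**Figure D4:**
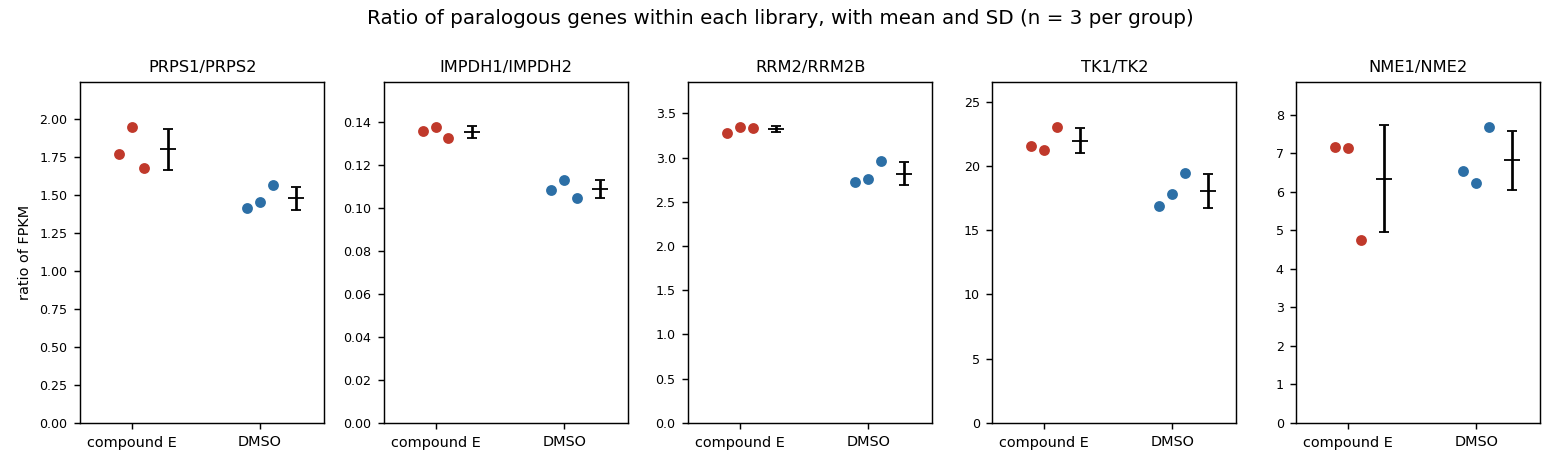
Ratio of FPKM of 5 pairs of genes of like function within each library (linear axes from 0), compound E in red and DMSO in blue, with mean and SD (n = 3 each). RRM2, TK2, NME1 and NME2 share coding bases with other genes, and their ratios are uncertain. In 4 pairs the compound E ratios lie above the DMSO ratios, as for RRM2 over RRM2B at 3.28 to 3.35 with compound E and 2.73 to 2.96 with DMSO, and in NME1 over NME2 they overlap.

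By level per length, with CTPS2 listed at 0, the 34 tested genes spanned from ADA, at 337 ± 6.76 FPKM with compound E and 382 ± 1.34 FPKM with DMSO, to SAMHD1, at 0.0978 ± 0.00850 FPKM with compound E and 0.0564 ± 0.0256 FPKM with DMSO (SD, n = 3 each). Behind ADA, IMPDH2 was next in both groups, at 62.4 ± 1.76 FPKM with compound E and 87.2 ± 1.34 FPKM with DMSO. With compound E it was followed by GUK1 (57.0 ± 1.53 FPKM), RRM1 (55.9 ± 0.770 FPKM) and DUT (49.6 ± 0.854 FPKM), of which GUK1 and RRM1 did not differ beyond their spread. With DMSO the order was DUT (53.5 ± 0.258 FPKM), RRM1 (53.4 ± 0.285 FPKM) and GUK1 (48.1 ± 2.44 FPKM), of which DUT and RRM1 did not differ beyond their spread. The spread between libraries was small, with a median coefficient of variation over the 34 genes of 3.29% with compound E and 2.69% with DMSO, against 6.12% with compound E and 5.59% with DMSO over all tested genes. These gene sets were not matched for expression level.

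Other genes of nucleotide metabolism, outside the 35, were called in 16 of 37 tested (43.2%, beside 38.3% of all tested genes and 49.8% of the protein-coding genes with at least 5 CPM), 4 higher and 12 lower, with a median log2 fold change of -0.04. UCK2, the uridine and cytidine kinase, fell to 122 ± 1.39 CPM with compound E, against 157 ± 3.20 CPM with DMSO, and DCTD, dCMP deaminase, which feeds thymidylate synthesis, fell to 38.6 ± 2.37 CPM with compound E, against 54.0 ± 1.91 CPM with DMSO (SD, n = 3 each). NME4, a mitochondrial nucleoside diphosphate kinase, fell by 0.35 on the log2 scale. SLC29A1, the nucleoside carrier that also takes up cytarabine, rose to 94.4 ± 2.40 CPM with compound E, against 75.6 ± 2.50 CPM with DMSO (SD, n = 3 each). Among these 4, edgeR's adjusted p was at most 3.49e-08. Limma on unfiltered FPKM called 7 genes of this list. TYMS, thymidylate synthase (log2 0.08), and DCK, deoxycytidine kinase (0.07), were not called, and CDA, XDH and GDA, enzymes of nucleotide breakdown, had 0 counts in all libraries.

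Of 25 tested genes of one-carbon and nitrogen supply, which feed the purine ring, 13 fell and 4 rose. The called share was 68%, beside 38.3% of all tested genes and 49.8% of the protein-coding genes with at least 5 CPM. Of the 25 supply genes 6 fell at least 2-fold, where 0 of the 34 nucleotide synthesis genes and 3.83% of all tested genes were called at 2-fold or more. PSAT1 and PHGDH, of serine synthesis, had log2 fold changes of -1.93 and -1.18, and MTHFD2 and SHMT2, of mitochondrial folate metabolism, of -1.59 and -0.997, while cytosolic SHMT1 (0.22) rose and cytosolic MTHFD1 (-0.22) fell. GLUL, glutamine synthetase, rose by 0.33. Genes of replication licensing and the replication fork, where deoxynucleotides are used, were called in 25 of 38 (65.8%, beside the same 38.3% and 49.8%), 9 higher and 16 lower. Their log2 fold changes lay within a range of -0.52 (CDT1, a licensing factor) to 0.22 (POLA2, of the primase complex), with MCM2 (-0.25), RFC1 (-0.24) and POLD2 (-0.22) lower and a median of -0.01. No test was made of the difference between these lists.

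**Figure D5:**
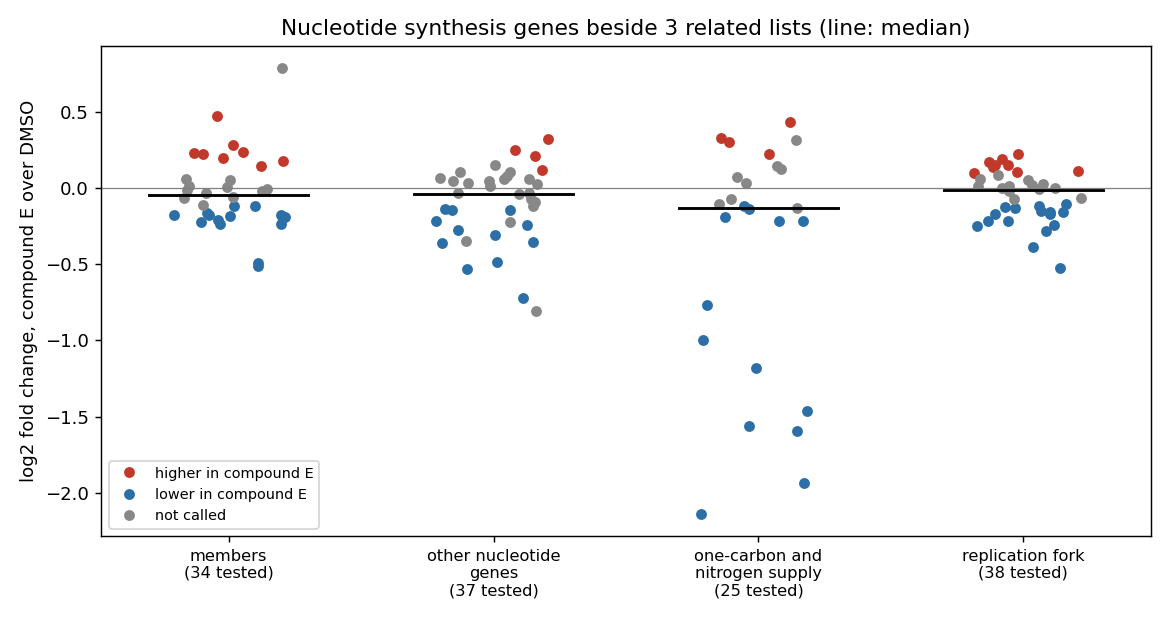
Log2 fold change (compound E over DMSO) of each tested gene of the nucleotide synthesis list and of 3 related lists, coloured by call, with the median as a line. The nucleotide synthesis genes lie between -0.51 (TK2) and 0.79 (SAMHD1, not called), and the supply genes reach -2.14 (ASNS, asparagine synthetase).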

How the data were processed

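Per the labels, mRNA of 3 compound E and 3 DMSO libraries was selected with oligo-dT beads and prepared with an NEBNext Ultra kit. HISAT2 2.0.5, featureCounts 1.5.0-p3 and DESeq2 1.16.1 stand in the submitters' processing notes, with no role. No genome build, strand setting or rule for shared reads is named in those sources. The count table deposited by the authors holds whole-number, unnormalised read counts per gene, and their deposited FPKM equal those counts per gene length and a scaled depth per library. Gene positions match GENCODE release 29 (GRCh38).

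edgeR 4.0.16 (R 4.3.3) was run on the counts with filterByExpr (16926 genes), TMM and the quasi-likelihood F-test, treatment being the only term. Standard errors are the log2 fold change divided by root F. Log2 values were computed here, none being deposited by the authors. FPKM ratios were compared by exact permutation tests. Counts of 16926 genes were simulated for this comparison, with 1 dispersion (0.00074) for all genes and 200 genes changed. In them edgeR recovered 48% of 50 genes changed 1.2-fold, and 72%, 88% and 100% of those changed 1.5-fold, 2-fold and 4-fold. Of its calls 3.14% were false. In the data 6484 genes were called, so these rates may not carry over.

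Genes given by library are, per role, up to 4 called in each direction by size and the genes paired for ratios. Of other lists, they are up to 4 with the smallest p. Other examples were picked once their values were known. The members and lists were chosen with earlier results of these data known.

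Alternatives were 3 other scalings, no filter, 5 CPM in 3 libraries, DESeq2 1.42.0, limma-voom (limma 3.58.1), limma on FPKM (pseudocount 1, filtered or not, or 0.1), a replicate block and each library left out. Leaving out genes that share coding bases was added after the data were seen.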

Additional observations from a re-analysis of the deposited data

How the results depend on the processing

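Of the 22 called genes 18 kept their direction and call under each of 17 alternatives, 4 (ADSS, IMPDH1, ATIC and APRT) lost the call in at least 1, and 0 changed direction. Leaving out each library gave 8 to 9 genes called higher and 13 to 15 called lower, and the other alternatives 7 to 9 and 11 to 15. Limma on unfiltered FPKM called 4002 genes of the whole table and 7 of the other nucleotide genes, against 6484 and 16 in edgeR; filtered limma on log2(FPKM + 1) called 5285 and 14, and unfiltered edgeR 6248 and 13.

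Uncalled genes near 0 changed sign. ADSL was 0.0011 without a filter, 0.0014 with limma on log2(FPKM + 1) with and without a filter, 0.0011 with log2(FPKM + 0.1), and -0.069 to 0.065 with a library left out. HPRT1 was -0.0056 with upper quartile scaling, -0.0028 with the 5 CPM filter, and -0.015 to 0.053 with a library left out. NME2 was -0.00067 with upper quartile scaling and -0.14 to 0.10 with a library left out. Leaving out a library gave -0.036 to 0.012 for PPAT and -0.074 to 0.018 for DHODH. The log2 ratio of NME1 to NME2 differed by -0.22 to 0.073, turning sign without compound E replicate 3. The cause was not tested.

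Same-numbered libraries did not deviate together (correlations of 0.010, -0.021 and -0.0053), and not every library correlated best with its own number. With the replicate block 6138 genes were called, and 8 and 14 of the listed genes as before; the exact sign-flip test of the ratios under this pairing gave p = 0.25 for 4 pairs and 1 for NME1 over NME2. Low counts limit the precision for SAMHD1 and NME2, with under 130 counts in any library. Why these counts were low was not tested.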

Other observations

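CTPS2, listed at 0, lies on chromosome X (GRCh38 16588003 to 16712936, minus strand) among genes with and without counts. Its neighbour SYAP1 had 694, 708 and 728 counts with compound E, against 773, 762 and 652 with DMSO, and S100G, which lies within its span, and MAGEB17 had 0 in all 6 libraries. Beyond SYAP1, TXLNG had 833 to 839 counts with compound E and 925 to 1033 with DMSO.

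Processed pseudogenes named after the listed genes, 35 in number, took few counts. The largest share was that of NME2P1, at 2.25% of the counts of NME2, and next was IMPDH1P8, at 2.00% of those of IMPDH1. PRPS1P2 had 25 to 42 counts with compound E and 28 to 42 with DMSO, or 1.72% of the counts of PRPS1, and 11 of the 35 had more than 10 counts over all libraries.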
